A study of Mus musculus with 7 samples.

Results

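The tumour suppressor p53 (Trp53) and 9 genes that act directly around it were described in mouse hearts: its feedback inhibitors Mdm2 and Ppm1d, the arrest genes Cdkn1a and Ccng1, the stress sensors Gadd45a, Gadd45b and Gadd45g, the sestrin Sesn1 and the Akt inhibitor Phlda3. Probes were assigned to these symbols through the transcript accession that the array files list for each probe. All 10 genes had a probe. They were covered by 11 probes (2 for Cdkn1a) of 55681 on the array, and each gene was tested as 1 of 22341 features, 13696 of them named genes. All 10 were well above background on all 7 arrays.

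Total RNA came from the heart apex of 3 KO and 4 control male C57BL/6 mice, each hybridised to its own 1-colour array. KO mice were heterozygous for the α-MHC mercremer transgene and homozygous for p38α flox/flox. In this transgene the α-MHC promoter, active in cardiomyocytes, drives a Cre recombinase that hydroxytamoxifen switches on, and Cre removes exons 2 and 3 of the p38α gene (Mapk14). Control mice were homozygous for p38α flox/flox and are listed without Cre, so loss of p38α and presence of active Cre cannot be told apart here. Both groups received 500 µg of hydroxytamoxifen per day for 10 days from 6 weeks of age. Both also received angiotensin II, a hormone that raises blood pressure and loads the heart, at 1.5 mg/kg per day for 48 h from an osmotic minipump. Hearts were taken at 3 months, and the series has no untreated hearts, so every difference is between genotypes under angiotensin II. RNA from cardiomyocytes and from all other cells of the apex was measured together. The study asks how loss of p38α in the heart changes gene expression.

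As background, p53 is a transcription factor that is held low by Mdm2, a ubiquitin ligase that marks it for degradation, and that is stabilised after DNA damage or other stress by kinases, p38 MAP kinases among them. Stabilised p53 turns on genes that stop the cell cycle, repair DNA, limit growth signals or start cell death, and it turns on Mdm2 and Ppm1d, which switch it off again. Much of its control acts on the protein, which arrays do not measure, and several of its targets also answer to other stress pathways.

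Each array had 46.0% to 49.6% of its probes well above background. Of the 22341 features, 25.2% passed the threshold of the test (limma, Benjamini-Hochberg adjusted p under 0.05), 10.2% higher in KO hearts and 15.0% lower. Levels are given as log2 of the background-subtracted signal relative to the array's 75th percentile, and differences as KO minus control on the log2 scale. The brighter of 2 Mapk14 probes averaged 0.22 log2 higher in KO hearts than in controls (adjusted p = 0.202), without overlap of the groups. The dimmer probe differed by 0.18 (adjusted p = 0.347 in the fit over all probes), and its groups overlapped. Whether either probe lies in the deleted exons is not known, so they do not check the deletion. One of 3 Esr1 probes, which could detect the estrogen receptor part of the Cre fusion, was at -0.82, 0.07 and 4.50 in KO hearts and was not well above background in control hearts (0 of 4 arrays). The other two Esr1 probes were not well above background in any heart of either group, so this check rests on 1 probe. One heart of each group stood close to the other group. Over all features control 2 correlated with KO 3 at 0.988, with control 1 at 0.993, with control 3 at 0.976 and with control 4 at 0.977. KO 3 correlated with KO 1 at 0.988 and with KO 2 at 0.980. Control 2 and KO 3 recur at the edge of their groups below. All arrays came from 1 slide and 1 scan day.

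Of the 10 genes, 5 rose in KO hearts, 2 fell and 3 did not pass the test, against 10.2% and 15.0% of all features in the same directions. Trp53, Cdkn1a, Gadd45b, Gadd45g and Phlda3 rose, and Ccng1 and Sesn1 fell. The median difference of the 10 genes was 0.52, against -0.06 over all features. In all 7 genes that passed, the 3 KO values and the 4 control values did not overlap. Groups failed to overlap in 39.0% of all features, 17.6% with KO higher and 21.4% with KO lower.

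**Figure D1:**
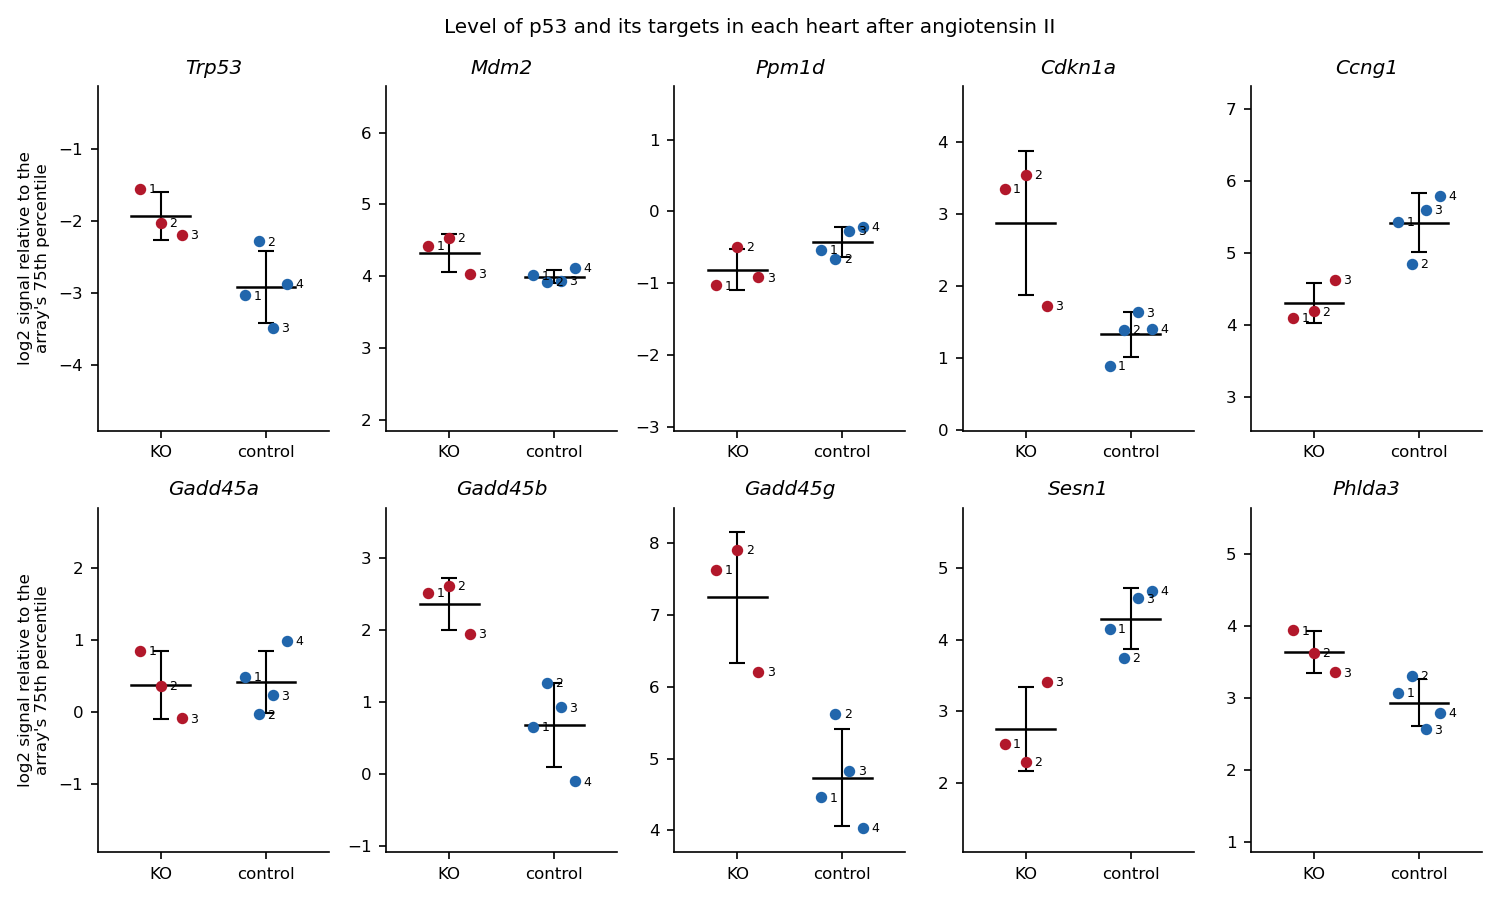
Level of each of the 10 genes in each heart, as log2 signal relative to the array's 75th percentile, with points numbered by replicate, the mean as a line and the SD as bars (KO in red, n = 3; control in blue, n = 4). All panels span the same number of log2 units. KO and control points are separate for Trp53, Cdkn1a, Ccng1, Gadd45b, Gadd45g, Sesn1 and Phlda3, with KO 3 the KO heart nearest the controls in each.

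Trp53 itself was a dim transcript on this array that was nevertheless well above background in every heart. Its level was -1.55, -2.04 and -2.19 in KO hearts 1 to 3, against -3.04, -2.29, -3.50 and -2.88 in control hearts 1 to 4. The groups did not overlap, but KO 3 and control 2 were only 0.09 log2 apart. The difference was 0.999 ± 0.29 (SE; 95% interval 0.33 to 1.67), a 2.00-fold higher level in KO hearts (limma, adjusted p = 0.0403). The probe was printed as 2 spots per array, whose SD on the log2 scale was 0.03 to 0.15. With another background correction (normexp, with quantile normalization) the difference was 0.58, still past the threshold (adjusted p = 0.0320).

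Neither feedback inhibitor of p53 passed the test. Mdm2, the ubiquitin ligase, was at 4.43, 4.53 and 4.03 in KO hearts, against 4.01, 3.92, 3.93 and 4.12 in control hearts. KO 1 and KO 2 lay above every control heart, while KO 3 fell among the controls. The difference was 0.33 ± 0.16 (95% interval -0.03 to 0.69; adjusted p = 0.141). Ppm1d, the phosphatase Wip1 that removes activating phosphates from p53 and from p38, was at -1.03, -0.49 and -0.92 in KO hearts, against -0.53, -0.66, -0.28 and -0.21 in control hearts. KO 2 lay among the controls and the other two KO hearts below them all. The difference was -0.39 ± 0.18 (95% interval -0.82 to 0.03; adjusted p = 0.140), so the intervals leave room for an increase of Mdm2 and a decrease of Ppm1d as well as for no difference. Fits that took the row of the array on the slide as a block, or weighted the arrays by their quality, moved Ppm1d past the threshold: -0.45 (adjusted p = 0.0442) with the row as a block.

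The 2 arrest genes went opposite ways. Cdkn1a encodes p21, the inhibitor of cyclin-dependent kinases that carries much of the arrest p53 sets off. Its brighter probe was at 3.35, 3.55 and 1.73 in KO hearts, against 0.89, 1.39, 1.63 and 1.40 in control hearts. KO 1 and KO 2 were far above every control, and KO 3 was 0.10 log2 above the highest control. The difference was 1.55 ± 0.42 (95% interval 0.57 to 2.53), 2.92-fold higher in KO hearts (adjusted p = 0.0347). This probe was read from 9 or 10 spots per array, with an SD between spots of the same array of 0.04 to 0.08 log2, and the KO hearts had an SD of 0.998 (n = 3). Without KO 3 the difference was 2.12, and without KO 2 it was 1.21 (adjusted p = 0.101).

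A second, dimmer Cdkn1a probe, assigned to another transcript of the gene, showed no such difference. It was at -3.657, -3.638 and -2.996 in KO hearts, against -3.668, -3.931, -3.731 and -3.150 in control hearts, and the groups overlapped. Its difference was 0.19 ± 0.24 (95% interval -0.36 to 0.74; adjusted p = 0.567 in the fit over all probes). With both probes averaged, the difference of the gene was 0.87 (adjusted p = 0.0211). The increase of Cdkn1a therefore rests on the brighter probe.

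Ccng1 encodes cyclin G1, a p53 target that brings a phosphatase to Mdm2. Its level was 4.10, 4.19 and 4.63 in KO hearts, against 5.43, 4.85, 5.60 and 5.80 in control hearts. All KO hearts were below all control hearts, with KO 3 and control 2 closest. The difference was -1.12 ± 0.25 (95% interval -1.69 to -0.55), a 2.17-fold lower level in KO hearts (adjusted p = 0.0202).

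The promoters of these p53 targets are shown because the genes share a documented activator and yet differed in direction. The windows run from 250 bases before to 50 bases after the annotated start (RefSeq, GRCm38.p6), with each match to the p53 decamer, the unit of which a full p53 response element has 2, in capitals. Both strands were searched, and the decamer reads the same way on either strand, so each match is counted once. It was found in 7 of the 12 windows of the 10 genes, against 8.36% of all 32817 windows. The window of Cdkn1a shown here holds 2 decamers within 13 bases of each other, which 0.0731% of all windows do.
Cdkn1a, chr17:29090729-29091028, plus strand: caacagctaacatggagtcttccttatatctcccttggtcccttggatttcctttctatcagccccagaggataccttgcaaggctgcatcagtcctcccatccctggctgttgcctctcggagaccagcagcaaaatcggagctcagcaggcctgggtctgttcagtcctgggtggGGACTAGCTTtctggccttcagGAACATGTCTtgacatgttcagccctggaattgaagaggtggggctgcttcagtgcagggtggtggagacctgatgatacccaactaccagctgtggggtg
Mdm2, chr10:117710709-117711008, minus strand: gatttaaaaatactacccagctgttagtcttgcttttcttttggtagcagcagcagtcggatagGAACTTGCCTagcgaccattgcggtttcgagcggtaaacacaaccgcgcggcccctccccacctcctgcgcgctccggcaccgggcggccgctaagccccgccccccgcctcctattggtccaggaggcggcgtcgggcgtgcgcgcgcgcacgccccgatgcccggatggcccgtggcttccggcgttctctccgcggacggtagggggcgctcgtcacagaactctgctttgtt
Ccng1, chr11:40755237-40755536, minus strand: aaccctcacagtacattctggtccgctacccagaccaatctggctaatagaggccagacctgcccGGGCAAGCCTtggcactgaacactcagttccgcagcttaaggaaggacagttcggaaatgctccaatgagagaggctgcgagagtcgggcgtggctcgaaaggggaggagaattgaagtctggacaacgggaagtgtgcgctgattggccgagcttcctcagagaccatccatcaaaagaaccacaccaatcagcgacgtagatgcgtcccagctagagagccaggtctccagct
Sesn1, chr10:41887189-41887488, plus strand: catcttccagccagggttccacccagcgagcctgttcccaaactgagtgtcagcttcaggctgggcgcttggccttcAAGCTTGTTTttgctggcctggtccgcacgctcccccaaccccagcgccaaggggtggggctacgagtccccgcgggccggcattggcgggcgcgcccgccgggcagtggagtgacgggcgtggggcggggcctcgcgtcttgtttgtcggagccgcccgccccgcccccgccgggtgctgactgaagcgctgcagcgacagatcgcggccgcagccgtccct
Cdkn1a, which rose, Ccng1 and Sesn1, which fell, and Mdm2, which did not pass the test, each have a window with a decamer. Cdkn1a and Sesn1 also each have another annotated start, and no decamer was found in the windows of those starts. A decamer was also found in the windows of Trp53, Gadd45a and Ppm1d, while none was found in those of Gadd45b, Gadd45g and Phlda3. A match describes the letters in these windows and shows neither binding nor a cause, and which start each probe's transcript used was not tested.

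The 3 Gadd45 genes encode small proteins induced by stress that bind the kinase MTK1 (Map3k4) upstream of p38, as well as PCNA and cyclin B1 complexes. Gadd45a, the member most directly tied to p53, did not pass the test. It was at 0.85, 0.36 and -0.09 in KO hearts, against 0.49, -0.04, 0.23 and 0.98 in control hearts, so the KO hearts lay within the range of the controls apart from KO 3 just below it. The difference was -0.04 ± 0.29 (95% interval -0.72 to 0.64; adjusted p = 0.920), an interval that does not exclude a change of 0.64 log2 either way.

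Gadd45b, known for its induction by NF-κB and TGF-β signals, was at 2.52, 2.61 and 1.95 in KO hearts, against 0.65, 1.27, 0.93 and -0.10 in control hearts. The gap between the groups, 0.68 log2, was the widest of the 10 genes. The difference was 1.68 ± 0.33 (95% interval 0.92 to 2.43), 3.19-fold higher in KO hearts (adjusted p = 0.0157). Gadd45g, a gene induced by cytokines in immune cells, was at 7.62, 7.91 and 6.20 in KO hearts, against 4.46, 5.62, 4.83 and 4.03 in control hearts. KO 3 was again the lowest KO heart and control 2 the highest control, 0.58 log2 apart. The difference was 2.51 ± 0.48 (95% interval 1.39 to 3.63), 5.69-fold higher and the largest of the 10 genes (adjusted p = 0.0155).

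The promoter windows of the 2 Gadd45 genes that rose are shown because both hold the sequence TATAAA close before the start and no p53 decamer. TATAAA, searched on both strands and in capitals below, begins 46 bases before the start in Gadd45b and 27 bases before it in Gadd45g.
Gadd45b, chr10:80929841-80930140, plus strand: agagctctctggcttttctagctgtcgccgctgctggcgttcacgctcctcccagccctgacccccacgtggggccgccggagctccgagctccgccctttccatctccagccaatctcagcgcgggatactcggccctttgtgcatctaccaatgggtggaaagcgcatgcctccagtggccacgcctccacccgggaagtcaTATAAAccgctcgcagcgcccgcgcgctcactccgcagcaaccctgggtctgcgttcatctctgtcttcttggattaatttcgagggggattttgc
Gadd45g, chr13:51846425-51846724, plus strand: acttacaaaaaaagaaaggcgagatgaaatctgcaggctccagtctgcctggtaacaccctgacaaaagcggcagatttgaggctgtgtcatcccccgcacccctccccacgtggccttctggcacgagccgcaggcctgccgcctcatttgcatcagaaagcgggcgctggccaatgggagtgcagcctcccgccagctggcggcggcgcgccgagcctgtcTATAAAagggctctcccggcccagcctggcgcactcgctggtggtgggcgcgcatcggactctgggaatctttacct
Among the other windows only that of Trp53 holds TATAAA, farther from the start, so 3 of 12 windows do, against 13.6% of all windows. The AP-1 motif TGANTCA was found in none of the 12 windows (7.81% of all windows) and the CRE motif TGACGTCA only in that of Ppm1d (1.79% of all windows).

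Sesn1 and Phlda3 are p53 targets that restrain growth signals. Sesn1 encodes sestrin 1, which dampens mTORC1 and oxidative stress. It was at 2.55, 2.30 and 3.41 in KO hearts, against 4.15, 3.75, 4.57 and 4.68 in control hearts. All KO hearts lay below all controls, by 0.34 log2 at the closest. The difference was -1.54 ± 0.32 (95% interval -2.28 to -0.80), 2.90-fold lower in KO hearts (adjusted p = 0.0178). Phlda3 encodes a pleckstrin homology domain protein that competes with Akt for membrane lipids. It was at 3.94, 3.63 and 3.35 in KO hearts, against 3.07, 3.31, 2.56 and 2.79 in control hearts, and KO 3 lay 0.05 log2 above control 2. The difference was 0.71 ± 0.22 (95% interval 0.20 to 1.22), 1.64-fold higher in KO hearts, and passed narrowly (adjusted p = 0.0490).

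How far these calls rest on single hearts was read by leaving out 1 heart at a time. Without KO 1, none of the 10 genes passed (limma; 69 of all features did), with adjusted p from 0.0779 to 0.184 for the 7 genes that passed with all hearts. Without KO 2, again none passed (1137 of all features did), the lowest adjusted p being 0.0530 for Gadd45g. Without KO 3, 8 of the 10 passed (5754 of all features), among them Mdm2 at 0.48 (adjusted p = 0.0427). Without control 1, 2, 3 or 4 in turn, 4, 7, 3 and 3 of the 10 genes passed, and Gadd45b, Gadd45g and Sesn1 passed in each of these 4 fits. Of all features, 3266 passed without control 1, 6971 without control 2 and 2701 without control 3. No count of all features is given for the fit without control 4. The counts from that fit, here and below, therefore cannot be set against all features. The direction of each of the 7 genes was kept in every one of these fits, so the losses are of the call and not of the sign. With 7 hearts there are 35 ways to split them, and the smallest two-sided exact permutation p for a single gene is 0.0286.

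**Figure D2:**
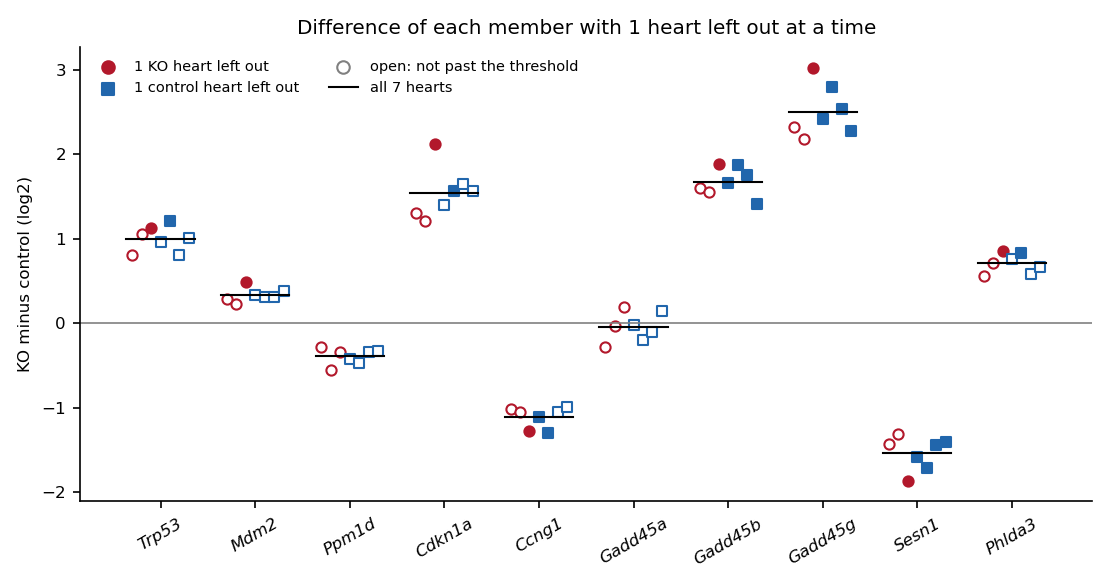
Difference of each of the 10 genes (KO minus control, log2) with 1 heart left out at a time: red circles for KO hearts, blue squares for control hearts, in replicate order from left to right, filled where the adjusted p was under 0.05 and open where it was not. The black line is the difference over all 7 hearts. All symbols of each gene that passed stay on 1 side of 0, while those of KO 1 and KO 2 are open for all 10 genes.

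Arrays sat in 2 rows of the slide, and each row held hearts of both groups. In the row with KO 1 and control hearts 1 and 2, Gadd45g differed by 2.58, Cdkn1a by 2.21, Sesn1 by -1.41 and Ccng1 by -1.04. In the row with KO 2 and 3 and control hearts 3 and 4, the same genes differed by 2.62, 1.12, -1.77 and -1.29. Trp53 differed by 1.11 and 1.07, Gadd45b by 1.56 and 1.87 and Phlda3 by 0.75 and 0.82 in these rows. All 7 genes that passed thus kept their direction within both rows, whereas Gadd45a differed by 0.62 and -0.47.

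Of 13 close relatives of the 10 genes, 12 were measured: none rose, 2 fell and 10 did not pass, with a median difference of -0.21. Of all features, 10.2% rose and 15.0% fell. Cdkn1b, which encodes p27, the sister inhibitor of p21, was at 1.97, 1.96 and 2.25 in KO hearts, against 2.51, 2.37, 2.65 and 2.63 in control hearts. It fell by 0.48 on the log2 scale (SE 0.14; adjusted p = 0.0422). Ppm1b, a phosphatase of the family of Ppm1d, fell by 0.56 (SE 0.15; adjusted p = 0.0338). Cdkn1c, the third inhibitor of this kind, differed by -0.67 without passing (adjusted p = 0.132). The p53 homologues Trp63 and Trp73 differed by -0.23 and -0.18 (adjusted p = 0.299 and 0.326), Mdm4, the partner of Mdm2 that blocks p53's activation domain, by 0.26 (adjusted p = 0.251), and Ccng2 by -0.90 (adjusted p = 0.119). The sestrins Sesn2 and Sesn3 differed by 0.16 and 0.15 (adjusted p = 0.447 and 0.691), Phlda1 by 0.17 (adjusted p = 0.596), and Ppm1a and Ppm1g by -0.42 and 0.31 (adjusted p = 0.105 and 0.129).

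Whether a gene differed from its own relatives was tested within each heart, as the log2 ratio of the 2 probes, over 15 pairs. Against Cdkn1b, Cdkn1a was shifted by 2.02 (95% interval 0.52 to 3.53), and against Sesn2, Sesn1 was shifted by -1.70 (95% interval -2.56 to -0.83). Each had the smallest p that 7 hearts allow (exact two-sided permutation test, p = 0.0286), but after Benjamini-Hochberg adjustment over the 15 pairs none was under 0.05 (lowest 0.0952). Gadd45b and Gadd45g were shifted against Gadd45a by 1.72 (95% interval 0.13 to 3.31) and 2.55 (95% interval 0.71 to 4.40), each with an exact permutation p of 0.0571 and 0.0952 after adjustment. The intervals of these pairs are t intervals with the variance pooled over the groups. They do not come from the permutation test and are not adjusted for the 15 pairs. Mdm2 and Mdm4 showed no detectable difference in shift, at 0.07 (95% interval -0.50 to 0.64), nor did Ccng1 and Ccng2 (-0.22, 95% interval -1.14 to 0.71), intervals that allow a sizeable difference.

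**Figure D3:**
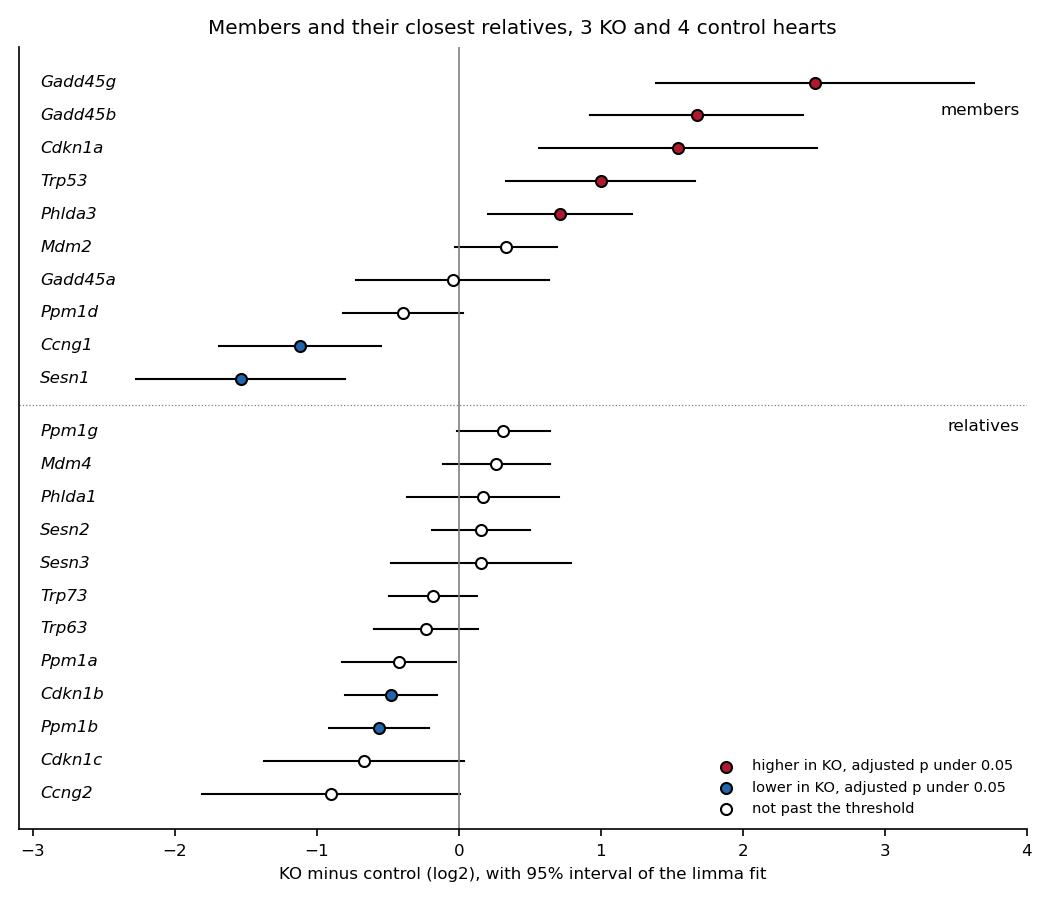
Difference of the 10 genes (top) and of 12 relatives (bottom), KO minus control on the log2 scale, with the 95% interval of the limma fit (3 KO and 4 control hearts). Red marks genes higher and blue genes lower in KO hearts at an adjusted p under 0.05, and open circles did not pass. Gadd45g lies farthest to the right at 2.51 and Sesn1 farthest to the left at -1.54.

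The wider p53 pathway was read from lists of genes by role, beside 10.2% of all features that rose and 15.0% that fell. Among 16 targets that promote cell death, 6 rose, none fell and 10 did not pass (median difference 0.40). Bid, Bax and Bbc3 (PUMA), members of the Bcl-2 family that act on mitochondria, rose. Bax was at 3.19, 3.00 and 2.93 in KO hearts, against 2.44, 2.36, 2.03 and 2.21 in control hearts, a difference of 0.78 ± 0.15 (adjusted p = 0.0151). Bbc3 differed by 0.70 ± 0.15 (adjusted p = 0.0196) and Bid by 1.32 ± 0.21 (adjusted p = 0.0124). Pmaip1 (NOXA), of the same family and counted among the 6, was at -1.84, -1.96 and -1.46 in KO hearts, against -3.17, -2.92 and -3.58 in control hearts 1, 2 and 4, the spot of control 3 being marked as an outlier. It was well above background on 2 of 4 control arrays and was tested only because of its level in KO hearts. With the filter set to all 7 arrays, 6 death targets passed. The death receptor Fas, another p53 target, differed by 0.24 (adjusted p = 0.330).

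Of 31 measured targets in repair, metabolism and other roles, 6 rose and 8 fell, with a median difference of 0.03. Gdf15, a secreted stress cytokine, was at 2.97, 4.07 and 3.38 in KO hearts, against -0.11, 1.87, -1.28 and -1.57 in control hearts. Control 2 stood well above the other controls and still below every KO heart. The difference was 3.74 ± 0.77, 13.4-fold higher in KO hearts (adjusted p = 0.0176), and 4.46 without control 2. Plk2, a polo-like kinase, differed by 1.49 (adjusted p = 0.0126), and Zmat3, an RNA-binding p53 target, by 0.76 (adjusted p = 0.0174). The small GTPase gene Rap2b, counted among the 6, was well above background on 2 of 4 control arrays and was tested only because of its level in KO hearts, and with the filter set to all 7 arrays 13 targets of this list passed. Those that fell included Tigar, an enzyme gene that slows glycolysis, at -0.95 (adjusted p = 0.0138), and Lpin1, a phosphatidate phosphatase and coactivator of fatty acid oxidation, at -2.19 (adjusted p = 0.0168). Ak1, the adenylate kinase of muscle, differed by -1.49 (adjusted p = 0.0123) and Cyfip2 by -1.26 (adjusted p = 0.0216). Targets of p53 thus rose and fell side by side.

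Of 28 measured kinases, cofactors and other regulators of p53, 3 rose and 1 fell, a share near the 10.2% of all features that rose and below the 15.0% that fell. Npm1, the nucleolar protein that can hold Mdm2, differed by 0.81 (adjusted p = 0.0214), Hipk2, a kinase that phosphorylates p53, by 0.70 (adjusted p = 0.0290), and Daxx, an Mdm2 partner, by 0.50 (adjusted p = 0.0349). Brd7, a bromodomain cofactor of p53, fell by 0.57 (adjusted p = 0.0181). The damage kinases Atm and Atr differed by -0.10 and -0.17 (adjusted p = 0.618 and 0.360). The 27 measured DNA damage response and checkpoint genes had a median difference of 0.01, and 1 of them rose: H2ax, the histone variant marked at DNA breaks, by 0.997 (adjusted p = 0.0462). Of 23 measured genes of G1 arrest and the Rb pathway, 3 rose and 1 fell: E2f4 by 1.15 (adjusted p = 0.0143), the p15 inhibitor gene Cdkn2b by 1.19 (adjusted p = 0.0153), Cdk4 by 0.58 (adjusted p = 0.0452) and the pocket protein gene Rbl2 by -0.67 (adjusted p = 0.0462). Of 8 kinase partners of Gadd45 proteins, Map2k3, a kinase that activates p38, rose by 0.91 ± 0.20 (adjusted p = 0.0189) and none fell; Map3k4 differed by -0.31 (adjusted p = 0.187). Without KO 1 none of the counts in these lists was above 0, and without KO 2 they were 2 death targets, 3 other targets and 1 gene of the Rb pathway. Without control 4 they were 3 death targets and 8 other targets, and without control 1 or control 3 there were 9 other targets, against 14 with all hearts.

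**Figure D4:**
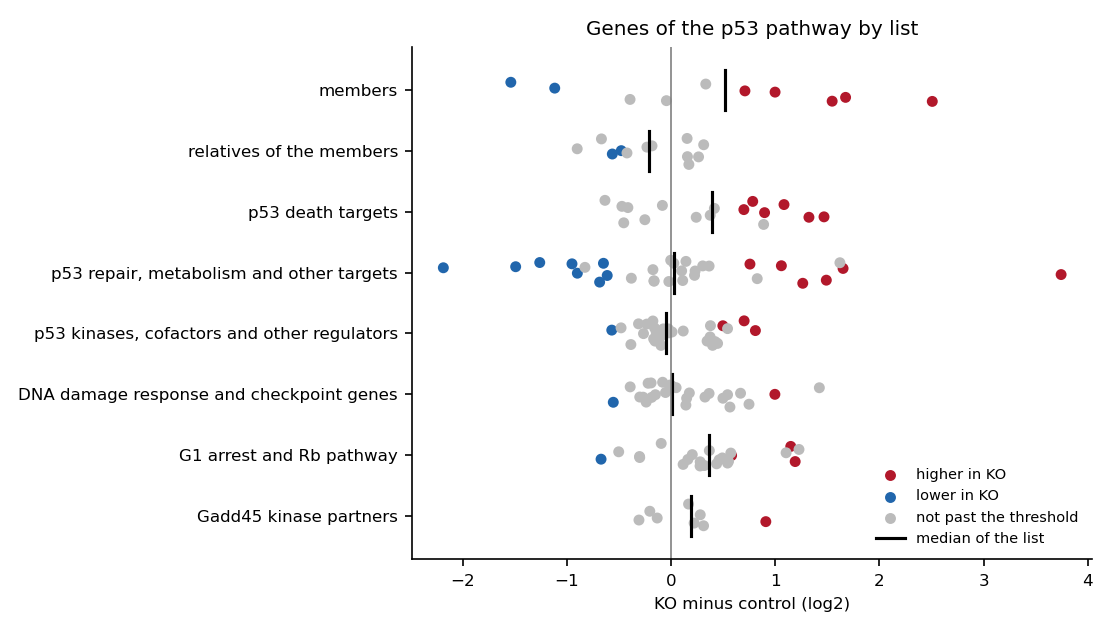
Difference of every measured gene of the p53 pathway lists, KO minus control on the log2 scale, 1 point per gene, with the median of each list as a bar. Red points are higher and blue points lower in KO hearts at an adjusted p under 0.05, and grey points did not pass. The called death targets all lie to the right of 0, while those of the repair, metabolism and other targets lie on both sides.

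Markers of cell types moved with the genotype beside these results. Of 20 cardiomyocyte markers, 11 fell and none rose, and their summed signal was 7287 to 8353 times the array's 75th percentile in KO hearts, against 9258 to 13954 in control hearts, without overlap. Without KO 1, KO 2 or control 4, 0, 5 and 7 of the 20 passed, and of the leukocyte markers 2 passed without KO 1 and 4 without KO 2. All 20 cardiomyocyte markers were well above background on all 7 arrays. In RNA of whole tissue, fewer cells of a type and less RNA per cell cannot be told apart. Of 20 measured leukocyte markers, 9 rose and none fell, some of which were tested only because they were above background in KO hearts. The 11 that did not pass differed in both directions, from Ccr2 at 2.28 to Itgam at -0.56. Among them were the neutrophil receptor gene Csf3r at -0.23 and the macrophage gene Adgre1 at 0.24. With the filter set to all 7 arrays, 5 of 16 leukocyte markers passed. Their summed signal overlapped, at 247 to 299 in KO hearts and 236 to 295 in control hearts, whereas the mean log2 level of the list did not, at 0.86, 0.84 and 0.70 in KO hearts, against -0.44, -0.15, -0.87 and -0.95 in control hearts. The neutrophil genes Mmp9 and Cxcr2 were not well above background on any control array. The sum and the mean cover all 20 genes, of which 16 were well above background on all 7 arrays. Genes kept only for their level in KO hearts enter the mean, so its separation is partly set by the filter. The part of these shifts in the difference of Gadd45b, Gadd45g, Cdkn1a, Ccng1 and Sesn1 was not tested.

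Proliferation markers overlapped between the groups. Of 24 measured, none passed the test (limma, none with an unadjusted p under 0.05). Their differences were nevertheless all above 0, from 0.34 to 1.44, with a median of 0.95. With the row of the array on the slide as a block, 5 of the 24 passed as higher, as did 3585 of all 22341 features. The mean log2 level of the list was 1.001, -0.61 and 1.24 in KO hearts, against 0.53, 1.14, -1.77 and -1.54 in control hearts. The fibroblast markers summed to 374 to 801 in KO hearts and 571 to 768 in control hearts, and the endothelial markers to 157 to 200 in KO hearts and 178 to 252 in control hearts. Of 13 fibroblast markers 1 rose, Pdgfra by 0.68 (adjusted p = 0.0163), and 3 fell, Clec3b by -2.43, Pi16 by -1.27 and Dpt by -0.81. The 9 that did not pass differed in both directions, from Col1a1 at 0.72 to Lum at -1.08. Of 13 endothelial markers Kdr, a VEGF receptor gene, fell by 1.19 on the log2 scale (adjusted p = 0.0123). The part of these shifts in the differences above was not tested.

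**Figure D5:**
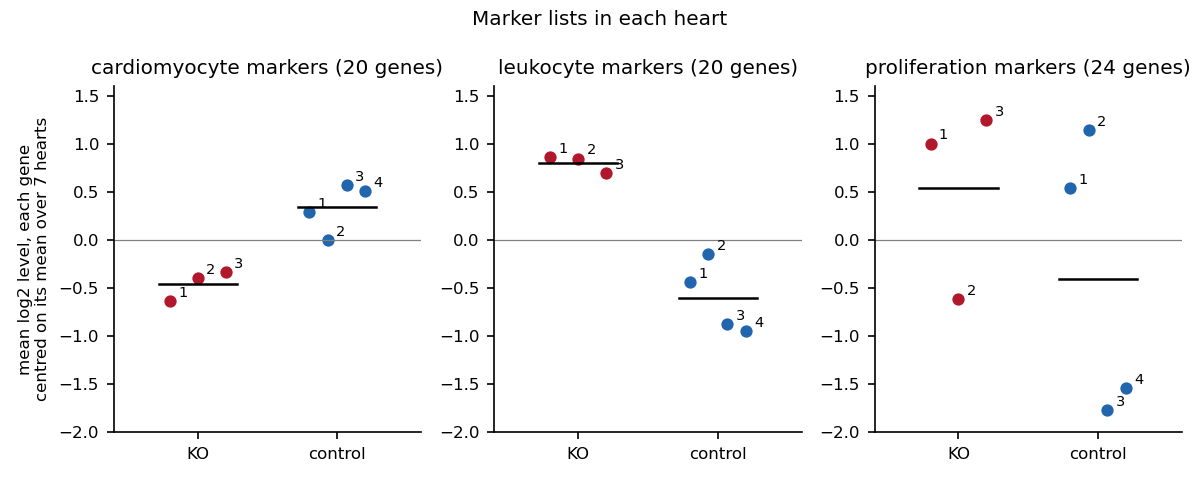
Mean log2 level of cardiomyocyte, leukocyte and proliferation markers in each heart, each gene centred on its mean over 7 hearts, with the group mean as a line and points numbered by replicate (KO in red, n = 3; control in blue, n = 4). KO and control hearts are separate for cardiomyocyte and leukocyte markers and overlap for proliferation markers. The leukocyte mean includes genes kept only for their level in KO hearts, so its separation is partly set by the filter.

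Across the 7 hearts, the genes most like Trp53 in level, among 13088 named genes, were Stip1, Trappc4 and Cdc42ep5, with Pearson correlations of 0.997, 0.995 and 0.993. Those most like Mdm2 were Ccdc9b, Ercc8 and Abl2 (0.992, 0.987 and 0.986), and those most like Cdkn1a were Surf6, Nle1 and Csrnp1 (0.997, 0.996 and 0.994). Within the 10 genes, Gadd45b and Gadd45g correlated at 0.977, Ccng1 and Sesn1 at 0.977, Sesn1 and Gadd45g at -0.980, and Cdkn1a and Mdm2 at 0.920. These describe 7 hearts in 2 groups, so the difference between the groups enters each value, and no test was made of them.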

How the data were processed

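RNA from the heart apex of 7 mice (3 KO, 4 control), 100 ng per labelling, was hybridised to 1-colour Agilent arrays. The labels name separate hearts, taken as separate animals. The design text gives 4 hearts per genotype, of which 3 KO hearts are among the samples used here. Per the file headers, the authors read the scans with Feature Extraction 11.0.1.1, and the deposited files hold the background-subtracted intensity of 62976 spots per array, 3671 of them control spots, with other columns of flags for outliers and signal well above background, per the file headers. The deposited value table holds log2 values whose scale is not given in the sources used here. Over the 15000 brightest probes, its columns correlated at 0.986 to 0.998 with the scanner values after each probe's median over the hearts was subtracted from the latter. The median of each row was 0 in 100% of rows, so the value table is centred per probe, with higher values meaning more signal. Its column medians were 0, apart from 0.00793 for control 4 and -0.00210 for KO 2.

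Intensities were turned to log2 and the array's 75th percentile was subtracted. Control spots and outlier spots were left out, and spots of 1 probe were averaged. Probes passed the filter with 3 or more arrays of 1 group well above background (26571 of 55681), and named through RefSeq accessions (28026 matched 1 symbol, 27655 none). The brightest kept probe stood for each gene. KO and control were compared with limma 3.58.1 in R 4.3.3 (lmFit, eBayes) over all 22341 features at an adjusted p of 0.05; 5640 passed. The number of arrays limits the precision. On simulated data of 22302 features, 0%, 50%, 76% and 94% of changes of 0.5, 1, 2 and 3 log2 were recovered, with 6 false calls. These shares describe the simulated data and not the fit to the hearts. In that fit some changes near 0.5 log2 passed, such as Cdkn1b at -0.48 and Daxx at 0.50. Deviations of hearts with the same replicate number correlated at 0.184, -0.223 and -0.197, so the numbers were not taken as pairs.

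The members and lists were chosen with earlier results of these data known. The text names all 10 genes and their probes, all relatives, and up to 4 genes per list and direction with the lowest p, with Fas, Atm, Atr and Map3k4 added after their values were seen. The comparison with relatives was also added then. One gene of the pathway lists is not reported here. Alternatives covered background correction, scaling, filters, probe choice, the variance model, blocks and leaving out each heart.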

Additional observations from a re-analysis of the deposited data

How the results depend on the processing

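In the 20 alternatives that give a difference, the 7 called genes kept their direction. The count of the 10 genes passing was 7 with all hearts and 0 to 8 with 1 heart left out, and the count of all features was 5640 and 69 to 6971. No filter on dim probes gave 2 of the 10 and 1415 features, and a fit without variance moderation 0 and 90 (the cause was not tested). Replicate numbers taken as pairs in a replicate block gave 0 and 9; the numbers were not shown to pair the hearts. Array weights gave 9 and 11997, and an adjusted p of 0.1 gave 8733 features. Gadd45a, near 0 with all hearts, ranged from -0.28 to 0.19 with 1 heart left out and was positive with normexp (0.00055), median centring (0.047), the replicate block (0.15), without control 4 (0.15), without KO 3 (0.19) and with array weights (0.32). Median centring ended the calls of Trp53 (adjusted p = 0.0505) and Phlda3 (0.0622).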
